A study of Mus musculus with 26 samples.

Results

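Gene expression in the heart was compared with that in the liver of mouse embryos at E14.5, a stage counted in days of gestation, using 4 RNA-seq libraries in which 1 heart and 1 liver came from each of 2 embryos. These 4 libraries were chosen by their labels from the 26 samples of a study on the DNA methyltransferases *Dnmt3a* and *Dnmt3b*, and they form 4 of the 10 RNA-seq columns of its table. The embryos came from crosses of mice heterozygous for a *Dnmt3a* knockout allele (B6;129S4-*Dnmt3a* tm1Enl) and are labelled male, with C57BL6 as the strain. Embryo 4 is labelled wild type (WT) and embryo 25 *Dnmt3a* knockout (KO), and the embryo was taken from the number that the titles of a heart and a liver share. Genotype and embryo cannot be told apart here, and each tissue had 2 libraries. *Dnmt3a* itself was at 55.0 FPKM in the WT heart and 125 FPKM in the heart labelled *Dnmt3a* KO, and at 53.5 and 12.7 FPKM in the livers. It was thus higher in the heart but lower in the liver of the embryo labelled KO. These values cover the whole gene, so they cannot check that label. Expression was measured as FPKM, a count of fragments scaled by transcript length and by the mapped fragments of the library. Of 52454 gene symbols in the table, 15146 were tested because their value was 1 FPKM or more in some library of the 4. All pairs of values below give embryo 4 first and embryo 25 second.

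The E14.5 heart is a beating, chambered organ whose bulk is cardiomyocytes, contractile cells packed with sarcomeres, together with endocardium, valve mesenchyme and an outer epicardium. The fetal liver at this stage is the main site of blood formation, so that erythroblasts, the nucleated precursors of red cells, share it with hepatoblasts, which secrete plasma proteins. The circulation still holds primitive red cells from the yolk sac, which carry embryonic globins, while definitive red cells from the liver carry adult globins. In a whole organ, fewer cells of a type and less RNA per cell cannot be told apart.

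Depth, as estimated from the spacing of low FPKM values, ranged from about 15400000 to 26100000 reads, and a transcript of 2000 bases at 1 FPKM then corresponds to 27.8 to 47.2 reads. The summed FPKM of 5 cardiomyocyte markers (*Nkx2-5*, *Tnnt2*, *Myh6*, *Myl7* and *Actc1*) was 21596 and 18596 in the hearts and 66.9 and 15.4 in the livers. That of 5 hepatocyte markers (*Alb*, *Afp*, *Apoa1*, *Hnf4a* and *Ttr*) was 17715 and 10701 in the livers and 32.7 and 7.08 in the hearts. Both organs therefore followed their labels. Markers of the other organ were detected in every library, and their sums were higher in the heart and in the liver of embryo 4 than in those of embryo 25. All 5 hepatocyte markers were higher in the heart of embryo 4, but of the 5 cardiomyocyte markers only *Actc1* (48.5 against 3.97 FPKM) and *Tnnt2* (9.12 against 1.42 FPKM) were higher in the liver of embryo 4, and the other 3 were higher in that of embryo 25, as was *Myl2*. The part of carried-over tissue in these low values was not tested.

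The first comparison asked which genes differed between the organs in both embryos. The direction was the same in both embryos at 13230 genes (87.3% of those tested). The embryo-paired limma test called 4409 genes higher in heart and 4721 higher in liver, which is 29.1% and 31.2% of the genes tested. A gene was called when its adjusted p was 0.05 or less and its direction was the same in both embryos. A difference of at least 2-fold in FPKM + 1 in both embryos was seen at 2577 genes higher in heart (17%) and 2337 genes higher in liver (15.4%), and all 4914 of these were also called. Between embryos, 558 genes differed at least 2-fold in heart and 489 in liver, against 6063 genes between the organs of embryo 4 and 6368 between those of embryo 25. Leaving out 1 heart lowered the number of genes called higher in liver by over 1.5-fold, to 3124 without embryo 4 and 3074 without embryo 25. Since so many genes differed, counts within every gene group below have to be read against these shares, which are repeated beside only some of them. Organ-specific lists were drawn up with the organ of higher expression in mind, so their counts in that direction do not test it. Some members reached 1 FPKM only in that organ, such as *Mybpc3* and *Ttn* in heart, and these could hardly fail to differ.

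**Figure D1:**
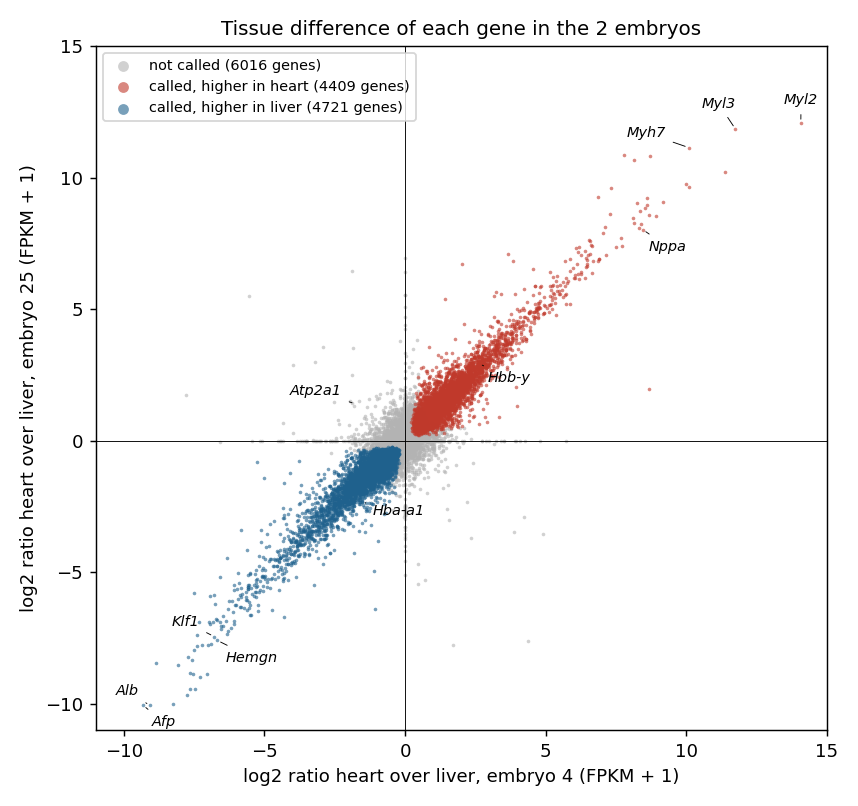
Each point is 1 of the 15146 genes tested, with its log2 ratio of heart over liver (FPKM + 1) in embryo 4 on the horizontal axis and in embryo 25 on the vertical axis; color gives the call. Called genes lie near the diagonal, from *Afp* and *Alb* at the lower left to *Myl2* at the upper right, and *Atp2a1* is 1 of the genes with opposed ratios.

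Sarcomere genes included the highest mean heart level and the largest mean differences in favor of heart. In all, 29 of 30 listed genes were tested, all 29 were called higher in heart and 28 differed at least 2-fold in both embryos. Their median log2 difference was 7.03, against -0.05 over all genes tested. *Myl2*, the ventricular regulatory myosin light chain (chromosome 5, 122100951 to 122113472 in mm10), was at 25671 and 25505 FPKM in the hearts, the highest mean heart level of any gene, although *Hbb-y* was higher in the heart of embryo 25 at 27151 FPKM, and at 0.493 and 4.91 FPKM in the livers. The fitted log2 difference was 13.07 ± 0.46 (SE, adjusted p = 8.2e-05 by limma). The essential light chain *Myl3* was nearly as sharply divided, with 6691 and 6826 FPKM in the hearts against 0.962 and 0.845 FPKM in the livers. *Actc1*, cardiac alpha-actin, was at 11034 and 9220 FPKM in the hearts, and its liver level differed between embryos, at 48.5 and 3.97 FPKM.

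The 2 cardiac myosin heavy chains lie side by side on chromosome 14. *Myh7*, the beta chain that predominates in the fetal mouse ventricle, was at 3765 and 3884 FPKM in the hearts and at 2.49 and 0.726 FPKM in the livers. *Myh6*, the alpha chain that prevails in the atria and in the adult mouse heart, was at 1250 and 931 FPKM in the hearts and at 0.137 and 0.179 FPKM in the livers. *Myh7* was thus above *Myh6* in both hearts. Cardiac troponin I (*Tnni3*), at 4075 and 3882 FPKM, and its slow skeletal form *Tnni1*, at 4103 and 3987 FPKM, stood at nearly the same level in the hearts. The smallest difference in the group was at *Mylk3*, the cardiac myosin light chain kinase, with 136 and 139 FPKM in the hearts and 92.7 and 83.4 FPKM in the livers (log2 difference 0.64 ± 0.12, adjusted p = 0.0079 by limma, and 0.0505 without the heart of embryo 25). Sarcomere genes made up 9.87% and 9.4% of the summed FPKM of the hearts and 0.0514% and 0.03% of that of the livers. The median called member was in the liver at 0.44% of its heart level in embryo 4 and at 0.0604% in embryo 25.

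**Figure D2:**
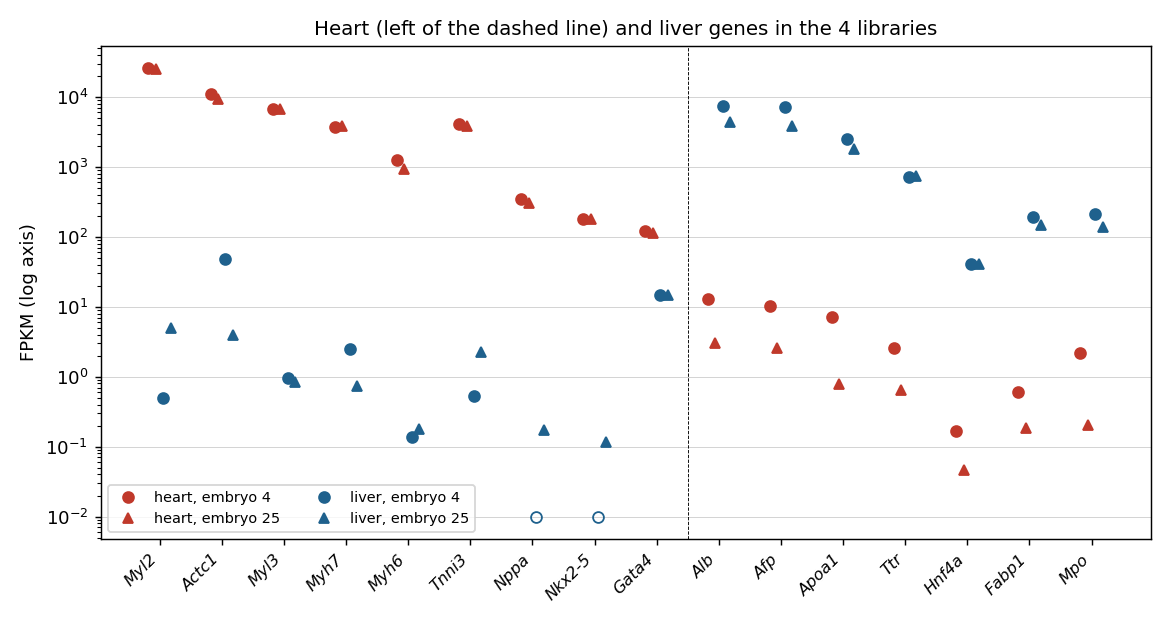
FPKM on a log axis of 9 heart genes (left of the dashed line) and 7 liver genes in each library, with circles for embryo 4 and triangles for embryo 25; open symbols at the lower edge stand for libraries in which the gene is listed at 0. The 2 hearts and the 2 livers lie apart at each gene, and the spread between embryos is widest on the low side, as at *Actc1* in liver and *Apoa1* in heart.

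The 250 bases before the RefSeq start of highly expressed sarcomere genes are shown because the CArG box, the binding motif of serum response factor (SRF), is the best known motif of such promoters. *Myl2*, *Myl4* and *Trf* have no window within 1000 bases of their main GENCODE start and were passed over. Capitals mark matches to the CArG box (a pair of C, 6 letters of A or T, a pair of G; read on both strands). Sequences are from RefSeq on GRCm38.p6, the assembly called mm10, and each is printed 5′ to 3′ on the strand of its gene.

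Actc1 (chr2:114052876-114053125, minus strand): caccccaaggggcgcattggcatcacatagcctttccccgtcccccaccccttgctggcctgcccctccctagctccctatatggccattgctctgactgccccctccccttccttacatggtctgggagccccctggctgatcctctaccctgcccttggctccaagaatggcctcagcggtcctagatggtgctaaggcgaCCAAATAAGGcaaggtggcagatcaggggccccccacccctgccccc

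Myl3 (chr9:110763428-110763677, plus strand): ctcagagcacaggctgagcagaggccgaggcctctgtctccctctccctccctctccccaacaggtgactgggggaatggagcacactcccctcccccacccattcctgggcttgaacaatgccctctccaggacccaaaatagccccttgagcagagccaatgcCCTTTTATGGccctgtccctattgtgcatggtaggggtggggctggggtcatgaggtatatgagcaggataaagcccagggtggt

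Tpm1 (chr9:67049214-67049463, minus strand): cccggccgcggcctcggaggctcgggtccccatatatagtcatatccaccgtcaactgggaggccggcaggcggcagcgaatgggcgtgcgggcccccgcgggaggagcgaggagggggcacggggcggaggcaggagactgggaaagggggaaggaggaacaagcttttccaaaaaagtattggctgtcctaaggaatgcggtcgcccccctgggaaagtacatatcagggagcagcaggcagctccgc

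The match in *Actc1* lies at positions -47 to -38 from the RefSeq start and that in *Myl3* at -85 to -76, while the *Tpm1* window holds none. Such a match was present in 5 of 21 windows of the sarcomere genes (23.8%), in 1.16% of 10311 windows of genes tested and in 1.47% of all 32851 windows. *Srf* itself was at 43.2 and 41.9 FPKM in the hearts and at 14.96 and 11 FPKM in the livers, and it was called higher in heart. A match describes the letters only, and no binding was measured.

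Cardiac transcription factors were higher in heart at 27 of 30 genes, with 24 at least 2-fold in both embryos and a median log2 difference of 2.72. *Nkx2-5*, the homeobox factor of the early heart field, was at 179 and 182 FPKM in the hearts and at 0 and 0.117 FPKM in the livers. *Irx4*, a factor of the ventricle, was at 36.2 and 39.99 FPKM in the hearts and listed at 0 in both livers. *Gata4*, which also acts in the liver mesenchyme, was at 120 and 114 FPKM in the hearts and still at 14.8 FPKM in each liver (log2 difference 2.90 ± 0.13, adjusted p = 0.00012 by limma). The highest member was *Ankrd1*, a cardiac co-regulator at 491 and 553 FPKM in the hearts. The sole member called higher in liver was *Nr2f2*, a nuclear receptor of veins and atria, with 12.8 and 7.30 FPKM in the livers against 6.36 and 5.02 FPKM. This call was lost without any 1 of the 4 libraries (adjusted p = 0.0609 to 0.376 by limma) and without the embryo pairing (0.0938). *Tbx3* was not called, at 1.62 and 5.25 FPKM in the hearts and 5.42 and 4.06 FPKM in the livers, and neither was *Isl1*, at 2.49 and 1.32 against 0.394 and 0.802 FPKM.

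Genes of calcium handling and ion channels followed the same order, with 26 of 27 tested genes called higher in heart, 1 higher in liver and a median log2 difference of 3.59. *Pln*, phospholamban, which restrains the calcium pump of the sarcoplasmic reticulum, was at 84.5 and 96.1 FPKM in the hearts and listed at 0 in both livers. The pump itself, *Atp2a2*, was at 538 and 486 FPKM in the hearts and at 70.5 and 69.8 FPKM in the livers, so its log2 difference was smaller (2.85 ± 0.11). The sodium-calcium exchanger *Slc8a1* was at 185 and 173 FPKM in the hearts against 1.41 and 1.13 FPKM in the livers. Both calsequestrins were high in heart. *Casq1*, known as the form of fast skeletal muscle, was at 223 and 195.9 FPKM, above the cardiac form *Casq2* at 131 and 157 FPKM.

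Ligands and receptors split between the organs, with 37 of 56 tested genes called higher in heart and 13 higher in liver, beside 29.1% and 31.2% of all genes tested, so that the liver count was below that share. The natriuretic peptides, hormones made by heart muscle, were the most divided. *Nppa* was at 350 and 304 FPKM in the hearts and at 0 and 0.175 FPKM in the livers, and *Nppb* was at 117 and 118 FPKM in the hearts and listed at 0 in both livers. *Bmp10*, a growth factor of the trabecular heart, was at 33.0 and 31.2 against 1.55 and 1.84 FPKM, and *Erbb2*, a co-receptor for neuregulin, at 43.5 and 40.4 against 3.87 and 3.01 FPKM. *Igf2* was the highest member in both organs, at 3379 and 3158 FPKM in the hearts and 1548 and 1226 FPKM in the livers. Of the members called higher in liver, the erythropoietin receptor *Epor* was at 135 and 120 FPKM in the livers and 3.57 and 1.90 FPKM in the hearts. *Thpo*, thrombopoietin, was at 3.08 and 2.58 against 0.105 and 0 FPKM. Erythropoietin (*Epo*) was at 1.20 and 0.923 FPKM in the livers and listed at 0 in both hearts.

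**Figure D3:**
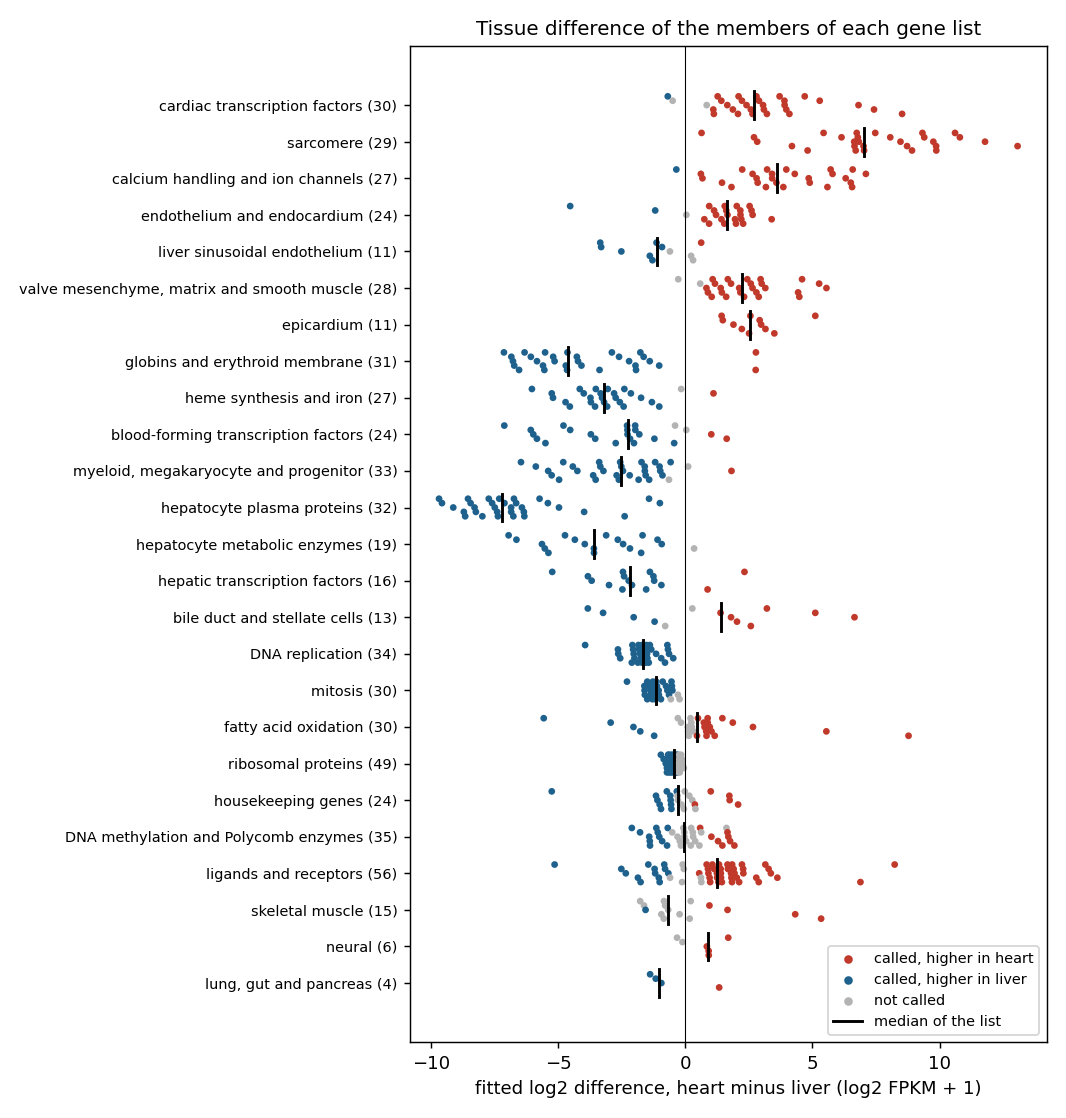
Fitted log2 differences, heart minus liver, of the tested members of 25 gene lists, with the number tested in parentheses, color for the call and a black bar for the median. Sarcomere genes (median 7.03) and hepatocyte plasma proteins (median -7.21) lie at the far ends, whereas ribosomal proteins all lie between -0.96 and -0.05.

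Genes of the vessel wall, connective tissue and outer layer were mostly higher in heart. Of 24 endothelial and endocardial genes, 21 were called higher in heart and 2 higher in liver, with a median log2 difference of 1.64. Endoglin (*Eng*) was at 143 and 131 FPKM in the hearts and 28.7 and 30.7 FPKM in the livers. The exceptions were *Tal1*, at 5.60 and 5.22 against 156 and 138 FPKM, which is also a master factor of blood formation, and *Egfl7*, at 34.3 and 33.6 against 89.3 and 68.7 FPKM. *Cldn5*, a tight-junction gene, was not called, at 15.3 and 16.7 against 14.9 and 16.1 FPKM. Markers of liver sinusoids, the fenestrated vessels of that organ, were called higher in liver at 7 of 11 genes and higher in heart at 1. Over all genes tested these shares were 31.2% and 29.1%. The hyaluronan receptor *Lyve1* was at 38.9 and 49.1 FPKM in the livers and 3.16 and 3.65 FPKM in the hearts. The scavenger receptor *Stab2* followed it, at 15.7 and 16.1 against 1.25 and 0.294 FPKM. Its relative *Stab1* was called higher in heart, at 140 and 130 against 79.1 and 96.2 FPKM, and the adjusted p by limma of 0.015 rose to 0.0999 and 0.0762 when the heart of embryo 4 or of embryo 25 was left out.

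Valve mesenchyme, matrix and smooth muscle genes were called higher in heart at 26 of 28 tested genes (median log2 difference 2.24), and epicardial genes at all 11 (median 2.56). *Acta2*, the actin of smooth muscle that fetal cardiomyocytes also make, was at 1176 and 876 FPKM in the hearts and 26.9 and 15.8 FPKM in the livers. Elastin (*Eln*) was at 218 and 286 against 7.82 and 3.82 FPKM. *Tcf21*, a factor of epicardium-derived fibroblasts, was at 30.4 and 29.8 against 4.08 and 4.88 FPKM, and the epicardial factor *Wt1* at 12.1 and 13.4 against 3.26 and 2.19 FPKM. A list drawn up for bile ducts and stellate cells, which lie beside the sinusoids, was called in both directions. Of its 13 tested genes, 7 were called higher in heart and 4 in liver (29.1% and 31.2% of all genes tested), and the latter fell to 2 when either liver was left out. Those higher in heart included desmin (*Des*), also in the sarcomere list, at 747 and 702 against 8.91 and 4.22 FPKM. *Krt19*, also in the epicardial list, was at 124 and 108 against 2.38 and 2.35 FPKM. *Reln*, a stellate cell marker, was at 36.3 and 42.4 FPKM in the livers and 1.86 and 1.79 FPKM in the hearts.

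Hepatocyte plasma proteins formed the opposite pole. All 32 were called higher in liver, 30 of them at least 2-fold in both embryos, with a median log2 difference of -7.21. Albumin (*Alb*, chromosome 5, 90460897 to 90476602) was at 7396 and 4323 FPKM in the livers and 12.7 and 3.04 FPKM in the hearts (log2 difference -9.57 ± 0.25, adjusted p = 5.4e-05 by limma). Alpha-fetoprotein (*Afp*), its fetal relative and neighbor, was at 7091 and 3785 against 10.1 and 2.58 FPKM. The 2 genes stood close to each other in every library. Transferrin (*Trf*) was at 5678 and 3284 FPKM in the livers, but at 30.1 and 58.5 FPKM in the hearts, so the heart of embryo 25, which had less *Alb*, had more *Trf*. The smallest differences were at *Fetub*, at about 1 FPKM in liver, and at *Apoe*. Apolipoprotein E, which macrophages and many other cells also make, was at 2124 and 892 FPKM in the livers and still at 545 and 481 FPKM in the hearts, and its call was lost without the heart of embryo 4 (adjusted p = 0.178 by limma) or of embryo 25 (0.216). The median member stood in heart at 0.334% of its liver level in embryo 4 and at 0.101% in embryo 25.

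The promoters of *Alb*, *Afp* and *Apoa2* are shown with the CCAAT box, a common promoter motif bound by the factor NF-Y, in capitals (CCAAT, or ATTGG where it reads on the other strand).

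Alb (chr5:90460620-90460869, plus strand): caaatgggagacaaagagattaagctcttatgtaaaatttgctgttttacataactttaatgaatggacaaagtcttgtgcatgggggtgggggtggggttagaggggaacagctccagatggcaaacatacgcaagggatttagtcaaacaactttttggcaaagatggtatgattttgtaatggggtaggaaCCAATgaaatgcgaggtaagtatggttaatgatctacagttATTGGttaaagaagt

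Afp (chr5:90490464-90490713, plus strand): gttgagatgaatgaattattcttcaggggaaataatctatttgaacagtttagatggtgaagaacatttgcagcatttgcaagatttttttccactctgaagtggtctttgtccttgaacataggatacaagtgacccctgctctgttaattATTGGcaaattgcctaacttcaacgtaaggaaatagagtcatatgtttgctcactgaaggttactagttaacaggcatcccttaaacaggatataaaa

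Apoa2 (chr1:171224804-171225053, plus strand): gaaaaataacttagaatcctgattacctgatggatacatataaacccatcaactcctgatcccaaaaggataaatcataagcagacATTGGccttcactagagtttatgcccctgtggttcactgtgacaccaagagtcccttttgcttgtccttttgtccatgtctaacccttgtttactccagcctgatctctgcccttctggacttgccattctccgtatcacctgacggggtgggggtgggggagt

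The motif lies at -56 to -52 and at -15 to -11 in *Alb*, at -98 to -94 in *Afp* and at -164 to -160 in *Apoa2*. It was found in 6 of 23 windows of the plasma protein genes (26.1%), in 35.7% of 10311 windows of genes tested and in 33.8% of all windows, so its share in these genes was not above that in the others.

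Metabolic enzymes of the hepatocyte were less uniformly on. Only 19 of 32 reached 1 FPKM in any library, and 18 of these 19 were called higher in liver. *Fabp1*, the fatty acid-binding protein of liver, was at 193 and 148 FPKM in the livers and 0.599 and 0.184 FPKM in the hearts. The urea cycle gene *Ass1* was at 124 FPKM in each liver against 7.59 and 6.59 FPKM. The 13 genes under 1 FPKM in every library included enzymes of the mature liver. *Cps1*, the entry enzyme of the urea cycle, was at 0.513 and 0.479 FPKM in the livers. *G6pc*, needed for glucose release, was at 0.0172 and 0 FPKM, and *Cyp7a1*, the rate-limiting enzyme of bile acid synthesis, at 0.106 and 0.137 FPKM. *Cyp27a1* was not called, at 1.81 and 2.23 FPKM in the hearts and 1.75 and 1.03 FPKM in the livers.

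Of 16 tested hepatic transcription factors, 14 were called higher in liver (median log2 difference -2.16). *Hnf4a*, the nuclear receptor that defines hepatocytes, was at 40.4 and 40.6 FPKM in the livers and 0.165 and 0.0467 FPKM in the hearts. *Cebpa* was at 28.3 and 23.1 against 1.103 and 1.04 FPKM, and *Foxa3* at 15.1 and 12.3 against 0.0287 and 0.0353 FPKM. None of these 3 factors approached the levels of *Alb* or *Afp*. A pair of members went the other way. *Prox1*, which lymphatic endothelium and heart muscle also use, was at 13.4 and 13.6 FPKM in the hearts and 6.56 and 7.24 FPKM in the livers, a call that was lost without the heart of embryo 4 (adjusted p = 0.0536 by limma) or of embryo 25 (0.0561). *Nr0b2*, a nuclear receptor that represses bile acid synthesis, was at 5.95 and 5.78 against 0.491 and 0.250 FPKM.

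Of 31 tested globin and erythroid membrane genes, 29 were called higher in liver, 28 of them at least 2-fold in both embryos, and 2 were called higher in heart (median log2 difference -4.63). The 2 exceptions were the embryonic globins *Hbb-y* and *Hba-x*. *Hbb-y*, the embryonic beta-like globin (chromosome 7, 103851749 to 103853216), was at 23670 and 27151 FPKM in the hearts and 3830 and 3560 FPKM in the livers. Its log2 difference was 2.78 ± 0.10 (adjusted p = 8.9e-05 by limma). *Hba-x*, the embryonic alpha-like globin, was at 2194 and 2540 against 375 and 318 FPKM, with a nearly equal log2 difference of 2.77 ± 0.14. The third embryonic gene, *Hbb-bh1*, did not share this direction, at 138 and 212 FPKM in the hearts and 516 and 553 FPKM in the livers (adjusted p = 0.0009 by limma, and 0.0642 or 0.0715 without the liver of embryo 4 or 25).

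Adult globins were higher in liver. *Hba-a1* was at 44330 and 57575 FPKM in the livers, the highest level of any gene there, and at 15170 and 11485 FPKM in the hearts. *Hbb-bs* was at 37960 and 43720 against 7184 and 4226 FPKM. *Hba-a1* and *Hba-a2* are nearly identical copies, as are *Hbb-bs* and *Hbb-bt*, so the split of reads within each couple is uncertain. *Hbb-bt* differed between the livers, at 10218 and 24900 FPKM, and its call was lost without either heart or without the liver of embryo 25 (adjusted p = 0.0818, 0.144 and 0.0956 by limma). Summed over all 7 globins, FPKM was 60977 and 54034 in the hearts and 120077 and 161654 in the livers. Embryonic globins made up 42.6% and 55.3% of this sum in the hearts and 3.93% and 2.74% in the livers. Among the beta-like genes alone, *Hbb-y* made up 66.8% and 79.3% in the hearts against 7.29% and 4.89% in the livers.

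**Figure D4:**
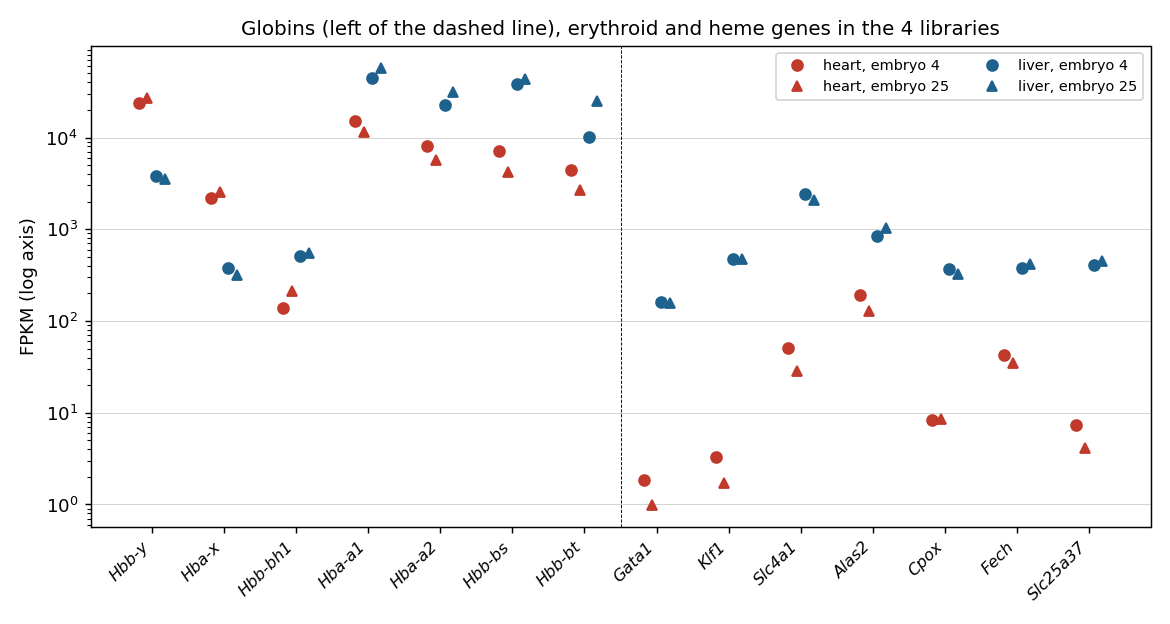
FPKM on a log axis of 7 globin genes and 7 erythroid and heme genes in each library, with hearts in red, livers in blue, circles for embryo 4 and triangles for embryo 25. *Hbb-y* and *Hba-x* are above the livers in both hearts, and the 12 other genes are below the livers in both hearts, by the widest margins at *Klf1* and *Gata1*.

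Promoter windows of these globins are printed with the GATA motif, GATAA on either strand, in capitals (TTATC where it reads on the other strand), because GATA1 is the leading factor of red cell genes. *Hba-a1* stands for *Hba-a2* as well, since their windows share 247 bases and all 247 are identical. *Hbb-y* and *Hba-x* were added after their values were seen.

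Hba-a1 (chr11:32283422-32283671, plus strand): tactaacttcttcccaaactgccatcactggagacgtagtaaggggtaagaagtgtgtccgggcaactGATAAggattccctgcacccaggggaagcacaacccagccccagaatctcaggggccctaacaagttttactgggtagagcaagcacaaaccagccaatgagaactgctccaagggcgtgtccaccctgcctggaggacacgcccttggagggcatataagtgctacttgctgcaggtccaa

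Hbb-bs (chr7:103827929-103828178, minus strand): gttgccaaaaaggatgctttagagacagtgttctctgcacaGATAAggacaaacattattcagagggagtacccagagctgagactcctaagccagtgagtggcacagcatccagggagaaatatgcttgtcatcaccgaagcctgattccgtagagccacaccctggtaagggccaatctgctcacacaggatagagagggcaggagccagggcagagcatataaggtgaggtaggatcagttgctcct

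Hbb-y (chr7:103853208-103853457, minus strand): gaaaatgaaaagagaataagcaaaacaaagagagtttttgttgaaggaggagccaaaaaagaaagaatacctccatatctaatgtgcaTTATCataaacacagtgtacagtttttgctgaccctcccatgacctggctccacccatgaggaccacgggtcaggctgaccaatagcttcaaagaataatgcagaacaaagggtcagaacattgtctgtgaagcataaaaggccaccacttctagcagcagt

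Hba-x (chr11:32276350-32276599, plus strand): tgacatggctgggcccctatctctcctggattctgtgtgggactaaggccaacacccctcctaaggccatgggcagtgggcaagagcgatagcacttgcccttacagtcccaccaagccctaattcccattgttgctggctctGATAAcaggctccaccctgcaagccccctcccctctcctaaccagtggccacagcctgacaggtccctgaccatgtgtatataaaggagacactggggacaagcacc

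Each window held 1 match, at -182 to -178 in *Hba-a1*, -209 to -205 in *Hbb-bs*, -162 to -158 in *Hbb-y* and -107 to -103 in *Hba-x*. It was present in 22 of 43 windows of red cell and heme genes (51.2%), in 14.4% of windows of genes tested and in 22.6% of all windows. The other groups were above these shares too, with 7 of 21 sarcomere windows (33.3%) and 8 of 23 plasma protein windows (34.8%), so the excess was not confined to red cell genes.

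Red cell genes other than the globins varied widely in how much lower they were in heart. *Gata1* was at 162 and 158 FPKM in the livers and 1.86 and 0.990 FPKM in the hearts, and *Klf1*, the factor that activates adult beta-globin, at 480 and 469 against 3.33 and 1.71 FPKM (log2 difference -7.12 ± 0.19, adjusted p = 5.5e-05 by limma). *Slc4a1*, the anion exchanger of the red cell membrane, was at 2415 and 2079 against 50.9 and 28.9 FPKM. The largest difference of the list was at *Hemgn*, a nuclear protein of erythroblasts, at 296 and 321 against 1.90 and 0.672 FPKM. Others were closer to the liver level, such as the ankyrin *Ank1*, at 141 and 128 FPKM in the livers and 38.8 and 38.9 FPKM in the hearts. Over the 29 members called higher in liver, globins included, the heart level was a median 3.21% of the liver level in embryo 4 (0.643% to 53.5%) and 2.01% in embryo 25 (0% to 44.6%).

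Heme synthesis and iron genes were called higher in liver at 25 of 27 tested genes, with a median log2 difference of -3.19. The enzymes *Alad*, *Uros*, *Urod*, *Cpox*, *Ppox* and *Fech* of the steps from aminolevulinate to heme were among them. *Cpox* was at 371 and 324 FPKM in the livers and 8.27 and 8.64 FPKM in the hearts, and ferrochelatase (*Fech*) at 375 and 421 against 42.6 and 35.0 FPKM. The transferrin receptor *Tfrc*, which brings iron into erythroblasts, was at 190 and 175 against 5.27 and 2.69 FPKM. *Slc25a37*, the mitochondrial iron importer mitoferrin, was at 409 and 450 against 7.39 and 4.16 FPKM. The first step, aminolevulinate synthase, was divided between 2 genes. The erythroid enzyme *Alas2* was at 849 and 1035 FPKM in the livers and 192 and 128 FPKM in the hearts. The general enzyme *Alas1* was called higher in heart, at 98.8 and 113 against 57.9 and 40.6 FPKM (log2 difference 1.11 ± 0.20, adjusted p = 0.0068 by limma, and 0.0636 or 0.0862 without the heart of embryo 4 or 25). *Snx3*, which recycles the transferrin receptor, was not called, at 180 FPKM in each heart and 189 and 214 FPKM in the livers.

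Among transcription factors of blood formation, 20 of 24 were called higher in liver and 2 higher in heart. *Nfe2* was at 270 FPKM in each liver and 3.43 and 3.19 FPKM in the hearts. *Zfpm1*, the partner of GATA1, was at 461 and 428 FPKM in the livers and also at 89.5 and 90.7 FPKM in the hearts, so its log2 difference was smaller (-2.29 ± 0.11). *Gata2*, which endothelium also expresses, was called higher in heart at 10.4 and 15.01 against 6.004 and 5.29 FPKM, and so was *Nfia*, at 5.29 and 8.36 against 1.56 and 1.40 FPKM, but neither call held when either liver was left out (adjusted p = 0.0659 to 0.123 by limma), and that of *Gata2* was also lost without the heart of embryo 25 (0.0754). Of 33 tested myeloid, megakaryocyte and progenitor genes, 30 were called higher in liver. *Mpo*, the peroxidase of early neutrophils, was at 212 and 138 FPKM in the livers and 2.16 and 0.205 FPKM in the hearts, and the platelet chemokine *Pf4* at 478 and 440 against 46.7 and 39.5 FPKM. *Cd34*, which marks progenitors and endothelium, was called higher in heart, at 53.7 and 58.0 against 16.2 and 14.1 FPKM.

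Genes of cell division were higher in liver as well. All 34 DNA replication genes were called in that direction, 28 of them at least 2-fold in both embryos (median log2 difference -1.67), and so were 27 of 30 mitosis genes (median -1.16). The helicase subunit *Mcm2* was at 462 and 323 FPKM in the livers and 95.5 and 131 FPKM in the hearts, and *Tyms*, which makes thymidylate for new DNA, at 316 and 311 against 83.9 and 71.8 FPKM. The origin recognition gene *Orc1* had the largest difference, at 39.6 and 39.0 against 2.43 and 1.01 FPKM. Of the mitosis genes, the ubiquitin-conjugating enzyme *Ube2c* was at 507 and 490 against 222 and 217 FPKM and the proliferation marker *Mki67* at 184 and 210 against 39.8 and 38.8 FPKM. The smallest replication difference was at *E2f1*, a factor of S phase entry, with 27.5 and 26.3 against 21.4 and 17.0 FPKM, and it was no longer called without any 1 of the 4 libraries (adjusted p = 0.0531 to 0.194 by limma). The 3 mitosis genes not called were *Bub1b* at 57.8 and 51.4 against 51.2 and 38.5 FPKM, *Cenpf* at 38.1 and 29.9 against 20.3 and 24.8 FPKM, and *Racgap1* at 92.8 and 74.7 against 67.1 and 75.6 FPKM. *Cenpf* was near the limit (adjusted p = 0.052 by limma) and was called higher in liver without the embryo pairing (0.0416).

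Ribosomal proteins were called higher in liver at 37 of 49 genes and higher in heart at none, but no member differed 2-fold in both embryos. Their log2 differences lay between -0.96 and -0.05, with a median of -0.44. The count of 37 rested on both hearts, since it fell to 6 without that of embryo 4 and to 4 without that of embryo 25. *Rps2* had the largest, at 3138 and 3743 FPKM in the livers and 1836 and 1692 FPKM in the hearts (adjusted p = 0.00215 by limma, and 0.055 without the heart of embryo 25). Genes often used as references were called in both directions. *Gapdh*, a glycolytic enzyme, was at 7470 and 7082 FPKM in the hearts and 2052 and 2290 FPKM in the livers, whereas *Actb* was at 1304 and 1187 against 2816 and 2510 FPKM. The translation factor *Eef1a1*, at 9359 and 9477 against 9151 and 9932 FPKM, and cyclophilin A (*Ppia*), at 3996 and 4154 against 4107 and 4348 FPKM, were not called. In all, 5 of 24 such genes were called higher in heart, 11 were called higher in liver and 8 were not called, beside 29.1% and 31.2% of all genes tested called in these directions, while without the heart of embryo 4 or 25 the number higher in liver fell to 3 or 6.

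Energy metabolism was examined through pairs of related genes of which 1 is known from muscle and the other from liver, blood or most cells. Over 32 pairs, of which 4 are not described here, the first gene's share of the summed FPKM was higher in both hearts than in both livers in 30, lower in both hearts in 1 and overlapping in 1. In 17 pairs the first member was called higher in heart and the second higher in liver. Among those described here, the calls of *Slc2a4*, *Ank2*, *Alas1*, *Pygl* and *Atp2a3* were each lost without at least 1 of the libraries (adjusted p = 0.0514 to 0.129 by limma). Muscle pyruvate kinase (*Pkm*) was at 1590 and 1473 FPKM in the hearts and 302 and 224 FPKM in the livers, and *Pklr*, the form of liver and red cells, at 3.00 and 0.230 against 525 and 567 FPKM. *Fabp3* was at 671 and 624 FPKM in the hearts and 0.736 and 0.250 FPKM in the livers, the reverse of *Fabp1*. Glycogen synthase was divided between *Gys1*, at 82.9 and 87.5 against 7.14 and 4.796 FPKM, and *Gys2*, at 0.0215 and 0 against 41.2 and 58.9 FPKM.

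In 7 other pairs both members were called higher in heart, although the calls of the second members *Cox6a1*, *Cox7a2* and *Cpt1a* were each lost when either heart was left out (adjusted p = 0.0525 to 0.114 by limma). The muscle subunit *Cox6a2* of cytochrome c oxidase was at 540 and 511 FPKM in the hearts and 2.47 and 0.324 FPKM in the livers, while its general form *Cox6a1* was at 1241 and 1261 against 877 and 880 FPKM. The general form thus stood above the muscle form in heart. The same order held for *Cox7a1* below *Cox7a2* and for *Cox8b* below *Cox8a*. *Slc25a4*, the ADP/ATP carrier of muscle, was at 1389 and 1341 against 137 and 122 FPKM, whereas its relative *Slc25a5* was not called (626 and 614 against 542 and 611 FPKM). Beyond enzymes, the GATA factors exchanged places, with *Gata4* making up 98.5% and 99.1% of *Gata4* plus *Gata1* in the hearts and 8.39% and 8.55% in the livers. The spectrins did so too. *Sptbn1* made up 87.3% and 90.3% of the beta-spectrin sum in the hearts and 8.2% and 6.12% in the livers, where the red cell form *Sptb* prevailed at 186 and 212 FPKM. Myoglobin (*Mb*), the oxygen store of muscle, was at 407 and 402 FPKM in the hearts and at 0 and 0.0508 FPKM in the livers.

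**Figure D5:**
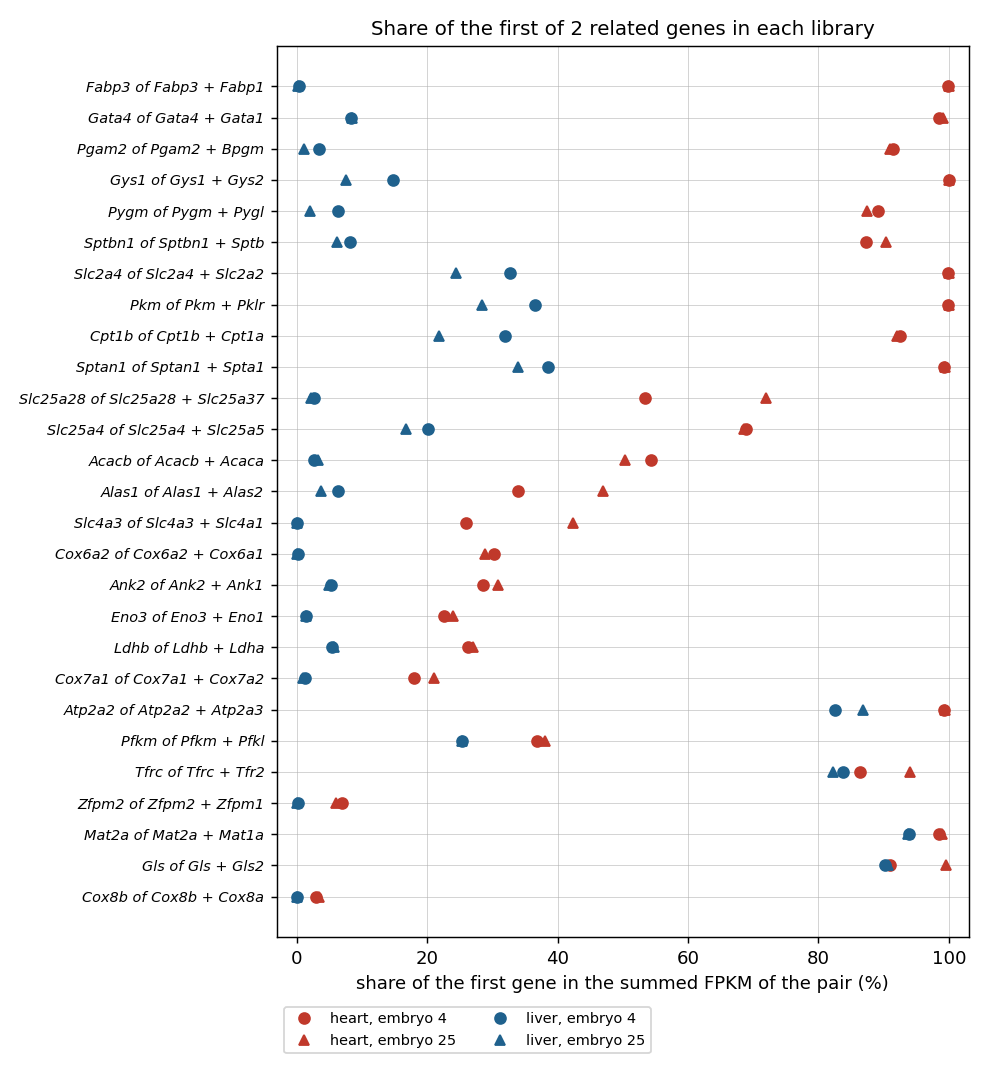
Share of the first gene in the summed FPKM of 27 pairs of related genes, in percent, with hearts in red, livers in blue, circles for embryo 4 and triangles for embryo 25. The first gene's share is larger in both hearts at each pair shown, and the hearts and livers are furthest apart at *Fabp3* with *Fabp1*.

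Fatty acid oxidation was mixed, with 16 of 30 genes called higher in heart, 5 higher in liver and 9 not called (median log2 difference 0.48), beside 29.1% and 31.2% of all genes tested. The difference was large at the muscle forms that open the path. *Cpt1b*, which admits fatty acids to mitochondria, was at 211 and 191 FPKM in the hearts and 4.75 and 2.24 FPKM in the livers. The enzymes of the cycle itself differed less. *Acadl* was at 223 and 228 against 88.7 and 74.6 FPKM and *Hadha* at 494 and 512 against 291 and 314 FPKM. *Acadvl*, at 77.4 and 81.6 against 78.2 and 66.4 FPKM, and *Echs1*, at 83.8 and 83.1 against 80.7 and 73.9 FPKM, were not called. The 5 genes higher in liver were the transporters *Slc27a2* and *Slc27a5*, *Acsl1*, *Ehhadh* and *Ppara*, the last of which was no longer called without the heart of embryo 25 or either liver (adjusted p = 0.0791 to 0.206 by limma). *Slc27a2* was at 51.8 and 53.1 FPKM in the livers and 0.0970 and 0.160 FPKM in the hearts.

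Enzymes of DNA methylation and Polycomb complexes, the subject of the study, were called in both directions, in shares near those over all genes tested. Of 35 tested genes, 8 were called higher in heart, 11 higher in liver and 16 were not called (median log2 difference -0.03), beside 29.1% and 31.2% of all genes tested. Without the heart of embryo 4 or 25, the number higher in heart fell to 5 or 4, and without the latter the number higher in liver fell to 7. *Uhrf1*, which guides maintenance methylation, was at 158 and 152 FPKM in the livers and 34.5 and 36.2 FPKM in the hearts, and *Dnmt3b* at 7.33 and 5.99 FPKM in the livers against 1.22 FPKM in each heart. *Dnmt1* was higher in liver, at 90.4 and 66.2 against 37.3 and 32.1 FPKM, although its adjusted p by limma of 0.0018 rose to 0.0518 and 0.0705 when the heart of embryo 4 or of embryo 25 was left out. Of the core of Polycomb repressive complex 2, *Suz12* was at 49.4 and 52.8 against 16.8 and 21.3 FPKM and *Eed* at 53.1 and 51.9 against 23.5 and 25.1 FPKM. Its methyltransferase *Ezh2* was at 89.4 and 89.9 against 52.1 and 42.9 FPKM, a call that was lost when either liver was left out (adjusted p = 0.053 and 0.0548 by limma). The members called higher in heart with the largest differences included 3 of Polycomb repressive complex 1, which was not counted on its own. *Cbx6* was at 46.1 and 46.6 FPKM in the hearts and 14.8 and 8.72 FPKM in the livers (adjusted p = 0.0512 and 0.0528 by limma without the heart of embryo 4 or 25), *Phc1* at 28.6 and 24.4 against 6.41 and 7.84 FPKM, and *Pcgf2* at 24.0 and 23.0 against 7.35 and 6.15 FPKM. *Dnmt3a* was not called (adjusted p = 0.11 by limma), with log2 ratios of 0.04 and 3.20 in embryos 4 and 25.

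Markers of organs that were not sampled were checked in the same way. Of 14 lung, gut and pancreas genes, 10 were under 1 FPKM in every library, and *Nkx2-1*, *Sftpc*, *Cdx2*, *Pdx1* and *Ptf1a* were listed at 0 throughout. Each of the remaining 4 lost its call without at least 1 of the libraries. Of 15 neural genes, 9 stayed under that limit and 4 of the 6 tested were called higher in heart (29.1% of all genes tested), a number that fell to 1 when either liver was left out. *Gap43*, a growth cone protein, was the highest of these at 22.4 and 26.0 FPKM in the hearts and 7.29 and 6.34 FPKM in the livers. Skeletal muscle genes summed to 545 and 459 FPKM in the hearts and 327 and 118 FPKM in the livers. In the liver of embryo 4, the myogenic factors *Myog* and *Myod1* were at 6.30 and 2.55 FPKM, and they were at 0.150 and 0 FPKM in the liver of embryo 25. *Mylpf*, a light chain of fast skeletal muscle, was at 231 and 110 FPKM in the livers and 48.2 and 59.2 FPKM in the hearts. Of the 15 tested genes, 4 were called higher in heart, beside 29.1% of all genes tested, among them the light chain *Myl1*, at 358 and 195.8 against 24.1 and 0.710 FPKM, and the fast troponin I gene *Tnni2*, at 119 and 186 against 12.3 and 3.18 FPKM. That number was 0 to 3 with 1 library left out. With the liver of embryo 25 left out, 8 of the 15 tested skeletal muscle genes were called higher in liver, against 1, *Mylpf*, with all libraries. That fit sets the liver of embryo 4 alone against the hearts and takes its spread from the 2 hearts, so these 8 calls describe that library and not the livers. The call of *Mylpf* was in turn lost without the heart of embryo 4 or 25 (adjusted p = 0.154 and 0.115 by limma). These values move with the higher sarcomere levels of the same liver, such as those of *Actc1* and *Tnnt2* but not *Myl2*, and their part in them was not tested.

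Some genes were nearly confined to 1 of these organs. At 10 FPKM or more in both libraries of 1 organ and under 0.1 FPKM in both of the other, there were 33 genes for heart and 32 for liver. The heart genes included *Mb*, *Nppb*, *Pln*, *Irx4* and *Ttn*, and also *Eef1a2*, a muscle and neuron form of the translation factor, and *Popdc3*, a membrane protein of striated muscle. The liver genes included *Gys2*, *Elane*, the elastase of neutrophils, the glucose transporter *Slc2a2*, *Foxa3* and the complement genes *Mbl1*, *Masp2* and *C8b*. At the other end, 5340 genes were at 10 FPKM or more in all 4 libraries. Of these, 1140 differed at least 2-fold in both embryos, and 253 differed by less than 10% in both.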

How the data were processed

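RNA was sequenced with a stranded TruSeq mRNA kit as single reads of 75 bases. The authors trimmed reads with cutadapt, aligned them to mm10 with TopHat and Bowtie2, kept reads with a mapping quality of at least 20 and computed FPKM on GENCODE M15 with Cufflinks 2.2.1 (version from the submitters' processing notes). The deposited FPKM table has 52609 rows, and the 155 rows that repeat a symbol were summed. Values were log2(FPKM + 1), which understates the changes of low genes, for genes at 1 FPKM or more in at least 1 library. limma 3.58.1 in R 4.3.3 was fitted with tissue and embryo as terms and an intensity trend (1 residual degree of freedom), with Benjamini-Hochberg adjustment over the 15146 genes; the script was tested on simulated data. With 2 embryos, p-values measure only the spread between these samples. Pairing by embryo comes from the shared number in the titles, and the deviations of heart and liver from their tissue means correlated at 0.049 over 10935 genes. Low FPKM values fell on multiples of 1 read, which gave the depths, and counting error at that depth limits values under 1 FPKM. Gene lists, pairs and comparisons were chosen with earlier results of these data known. Genes were named as those with the largest differences, the highest called members of each list, all pairs, exceptions and the genes with opposed ratios, and 68 further genes were named after their values were seen. Some genes, and the 4 pairs that hold any of them, enter the counts but are not reported by name. Alternatives changed the pseudocount, centering, low-value filter, trend, pairing and libraries. Strand, gene type and transcript length came from GENCODE M21 and promoter windows from RefSeq.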

Additional observations from a re-analysis of the deposited data

Results flagged for a closer look

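At 1729 genes the ratio of heart over liver had opposite signs in the embryos, and at 33 of these it exceeded 2-fold in both. Of the 33, 21 had no transcript of 300 bases and 9 were protein-coding. The 8 genes with the largest opposed ratios on longer transcripts are listed here because each tissue pair moved the opposite way. The difference between embryos was not tested, with 1 heart and 1 liver per embryo, and genotype and embryo cannot be told apart.

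The log2 ratio in embryo 4 and then in embryo 25 was 1.52 and -1.69 at *Gm45883*, -1.63 and 1.5 at *Gm28051*, and 1.49 and -2.61 at *Gm14686*. It was -2.53 and 1.49 at *Gm45799* and -1.36 and 1.27 at *Gm20537*. The named protein-coding genes were low in all 4 libraries. *Atp2a1*, the calcium pump of fast skeletal muscle, was at 0.219 and 2.15 FPKM in the hearts and 3.50 and 0.162 FPKM in the livers (log2 ratios -1.89 and 1.44). *Dpf1*, a subunit of neuronal chromatin remodeling complexes, was at 0.635 and 4.43 FPKM in the hearts and 4.81 and 1.19 FPKM in the livers (-1.83 and 1.31). *Isoc2b* was at 8.56 and 1.77 FPKM in the hearts and 2.56 and 5.32 FPKM in the livers (1.42 and -1.19). The liver of embryo 4, in which *Atp2a1* is higher, is also the one with *Myog* and *Myod1*, and their part in this ratio was not tested.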

How the results depend on the processing

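The numbers of genes called stayed within 1.5-fold under another pseudocount, centering, filter, row choice or trend and without the embryo pairing. Without the replicate block they were 4553 higher in heart and 4819 higher in liver, and 8850 of the 9130 calls were shared, with none in the opposite direction. Leaving out 1 library, in fits without the block in which the lone library of an organ is assumed to vary like the other organ's 2, gave 3224 to 3511 genes higher in heart and 3074 to 3615 higher in liver, of which 6037 to 6625 were shared with the 9130. A limit of 4-fold in both embryos left 931 and 796 genes in place of 2577 and 2337. A pseudocount of 0.1 gave 3330 and 2831 genes at 2-fold and moved the median of 16 of 25 lists. Protein-coding genes with a transcript of 300 bases or more, an alternative chosen after seeing the data, gave 4321 and 4649 calls. Of 245 named genes, the pairing block changed the call of 5. The log2 difference of *Gm28051*, which was not called, was 1.68 without the liver of embryo 4 and -1.81 without that of embryo 25, values that each rest on 1 liver library, and the cause was not tested. With 1 animal per genotype, no effect of genotype could be separated, and values under 1 FPKM rest on few reads.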

Other observations

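Several glycolytic genes of the pairs are given here as single values, since they had no list of their own, and no direction is drawn for glycolysis as a whole. *Aldoa*, the aldolase of muscle, was at 3048 and 3016 FPKM in the hearts and 521 and 446 FPKM in the livers. *Pgam2*, the muscle phosphoglycerate mutase, was at 938 and 893 against 5.73 and 2.19 FPKM, with a log2 difference of 7.63 ± 0.26 (adjusted p = 7.6e-05 by limma). *Bpgm*, the red cell mutase that makes the regulator of oxygen release, was at 87.0 and 88.0 FPKM in the hearts and 163 and 198 FPKM in the livers. *Eno3*, the enolase of muscle, was at 547 and 563 against 10.2 and 11.7 FPKM, and the general form *Eno1*, at 1876 and 1796 against 726 and 815 FPKM, was above it in both organs. The lactate dehydrogenase genes were also called higher in heart, with *Ldhb* at 674 and 715 against 55.4 and 52.8 FPKM and *Ldha* at 1896 and 1930 against 952 and 869 FPKM. The adenylate kinase *Ak1* was at 141 and 157 against 5.03 and 0.731 FPKM.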
